A study of Mus musculus with 6 samples.

Results

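Histone genes were followed in transcript profiles of γδ T cells cultured with or without DON. The members were the genes whose symbol starts with Hist1h, Hist2h, Hist3h, Hist4h, H1f, H2af or H3f, leaving out 4 symbols that end in -ps. This gave 87 of the 52550 genes listed in each library. By symbol, 69 were replication-dependent histone genes (Hist1h to Hist4h, 2 of them annotated as pseudogenes and too low to test) and 15 were replacement histone genes (H1f, H2af and H3f). The other 3 members are annotated as noncoding and were counted in neither class: H3f3aos is antisense to H3f3a, and H3f3c and H2afy3 are processed pseudogenes.

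The 6 mRNA libraries are labelled as γδ T cells from spleens of C57BL/6 mice. All cells were kept for 3 days on anti-CD3 and anti-CD28 plates, a stimulus for T cells, and all received IL-23 and IL-1β. The DON group (n = 3 libraries) also received DON, an agent that the labels name only by these letters, and the control group (n = 3) did not. The labels do not say whether the 3 libraries of a group had separate mice or cultures as their source, so a p-value here speaks only for the spread among the libraries, which may be technical. The question was how histone transcripts in stimulated cells differed when DON was present.

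Histones are the proteins around which DNA is wound: H2A, H2B, H3 and H4 form the core of the nucleosome and H1 binds the DNA between cores. Replication-dependent genes lie in clusters, are transcribed mainly while DNA is being copied, and most of their mRNAs end just after a stem-loop instead of in a poly(A) tail. Replacement genes are transcribed throughout the cell cycle as polyadenylated mRNAs, and their proteins are placed into chromatin outside replication. Some replication-dependent genes are known to make polyadenylated transcripts as well, mainly in cells that have left the cell cycle. The labels do not say whether the library kit selected polyadenylated RNA.

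The stem-loop was searched as a 16-base motif, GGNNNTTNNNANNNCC, with complementary arms of 6 bases each, on the sense strand of the annotated transcripts (GENCODE M21, GRCm38). It was in a transcript of 46 of the 69 replication-dependent genes, in 1 of the 15 replacement genes (H2afx) and in 97 of 21819 other protein-coding genes (0.445%). The lines below give the motif in capitals with the 5 bases on each side, 5′ to 3′, for the genes whose values carry the results.
Hist3h2a: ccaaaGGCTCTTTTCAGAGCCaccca
Hist1h1c: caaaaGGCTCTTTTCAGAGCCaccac
Hist2h3c1: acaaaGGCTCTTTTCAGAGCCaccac
Hist2h2aa2: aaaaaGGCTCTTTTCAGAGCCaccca
Hist2h4: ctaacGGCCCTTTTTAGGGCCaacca
Hist3h2ba: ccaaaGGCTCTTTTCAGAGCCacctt
H2afx: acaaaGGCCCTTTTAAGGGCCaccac

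The capitals lie at chr11:58955172-58955187 on the plus strand for Hist3h2a, at chr13:23739512-23739527 (plus) for Hist1h1c and at chr3:96247327-96247342 (plus) for Hist2h3c1. They lie at chr3:96239784-96239799 on the minus strand for Hist2h2aa2 and at chr3:96262939-96262954 (minus) for Hist2h4. For Hist3h2ba they lie at chr11:58949349-58949364 (plus), and for H2afx at chr9:44335240-44335255 (plus). The same 16 letters stand in the H2A, H2B, H3 and H1 genes Hist3h2a, Hist3h2ba, Hist2h2aa2, Hist2h3c1 and Hist1h1c, whereas Hist2h4 and H2afx have other arms. The annotated transcript runs on past these letters for 1643 bases in Hist3h2a, 1257 in Hist2h4, 1167 in Hist2h3c1, 840 in Hist1h1c, 822 in H2afx and 169 in Hist3h2ba, and stops after 35 bases in Hist2h2aa2.

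Most replication-dependent genes were near the detection limit in both groups. Values are normalized counts, gene counts that the authors had divided by 1 factor per library. Of the 69 genes, 6 were at 0 in all 6 libraries, 44 stayed under 10 in every library, and 10 had a mean above 50 over the 6 libraries. The number of replication-dependent genes above 0 was 39, 46 and 40 in DON libraries, against 48, 48 and 41 in control libraries. Of the 15 replacement genes, 5 were at 0 throughout, among them the germ-line genes H1fnt and H1foo and the testis genes H2afb1, H2afb2 and H2afb3. The testis genes Hist1h1t, Hist1h2aa and Hist1h2ba were also at 0 in every library.

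Per kilobase of annotated exon, the replacement gene H3f3b stood highest among all members, with a mean of 3984 normalized counts per kb over the 6 libraries. The highest replication-dependent gene on this scale was Hist2h2aa2, with 500.3 per kb in DON libraries and 798 per kb in control libraries. Hist3h2a followed with 412 per kb in DON libraries and 478 in control libraries, then Hist2h2be with 309 in DON libraries and 399.8 in control libraries. Over all 69 replication-dependent genes the median level was 4.72 per kb, against 313 per kb over the 15 replacement genes.

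Levels were also set beside the annotated 3′ ends. Transcripts ran more than 100 bases past the stem-loop in 23 replication-dependent genes and ended within 100 bases of it in 23, and the stem-loop letters were not in the annotated transcripts of 23. A mean above 50 normalized counts was reached by 6 genes of the first group, by 2 of the second (Hist2h2aa1 and Hist2h2aa2) and by 2 of the third (Hist2h2be and Hist1h2bc). Longer transcripts collect more counts at an equal level, and per kb the group medians were 5.1, 4.8 and 3.9 in the same order. These medians lie near the detection limit, since the median gene averaged 5.6, 2.3 and 1.8 normalized counts. They cannot show whether the groups differ in level. Levels within the groups ran from 0 to 445, 649 and 355 per kb, as the plot of level against annotated transcript length shows. In the same order, 11, 2 and 4 genes had at least 10 normalized counts in 3 or more libraries, and 9, 17 and 18 stayed under 10 in every library. The third group had a median transcript length of 399 bases, and the missing letters need not mark a kind of end.

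**Figure D1:**
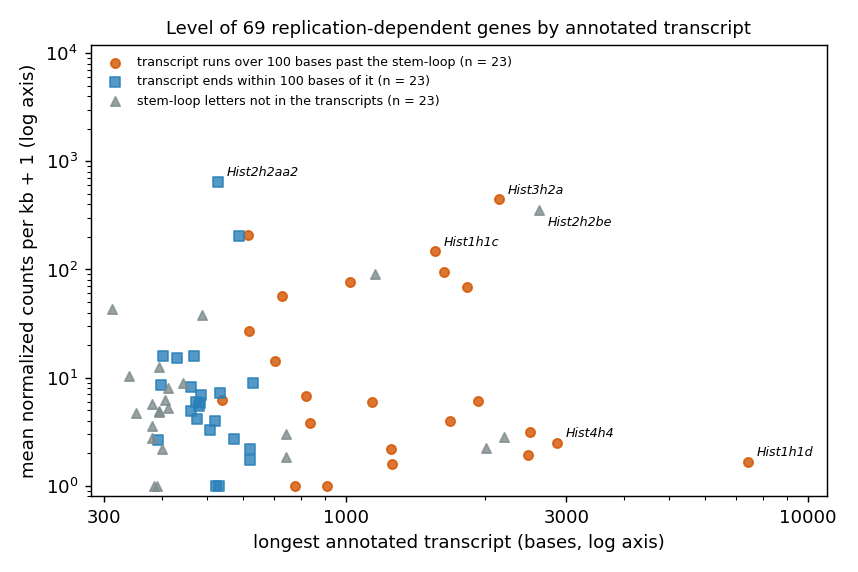
Mean normalized counts per kb of exon + 1 over 6 libraries (vertical, log axis) against the length of the longest annotated transcript in bases (horizontal, log axis) for 69 replication-dependent histone genes. Circles mark transcripts that run over 100 bases past the stem-loop, squares those that end within 100 bases of it, and triangles those without the motif; high levels occur in all 3 groups, with Hist2h2aa2 highest at 649.

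The summed level of the replication-dependent genes was lower in DON libraries, and that of the replacement genes overlapped between the groups. All 69 genes together gave 2910, 2979 and 2732 normalized counts in DON libraries 1 to 3, against 3925, 3701 and 4139 in control libraries 1 to 3. All 3 DON libraries were below all 3 control libraries. The means were 2874 ± 127 in DON libraries and 3922 ± 219 in control libraries (SD, n = 3 each), a log2 ratio of -0.45. The 15 replacement genes gave 35953, 43045 and 42717 in DON libraries, against 39181, 40070 and 39084 in control libraries. These groups overlapped, since DON library 1 was lowest and DON libraries 2 and 3 were highest. The replacement means were 40572 ± 4003 in DON libraries and 39445 ± 543 in control libraries, a log2 ratio of 0.04. In sums of per kb levels, the replication-dependent genes stood at 16.7 ± 2.72% of the replacement genes in DON libraries and at 24.0 ± 3.69% in control libraries (SD, n = 3 each). In bulk RNA, fewer cells transcribing these genes and less RNA per cell cannot be told apart.

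**Figure D2:**
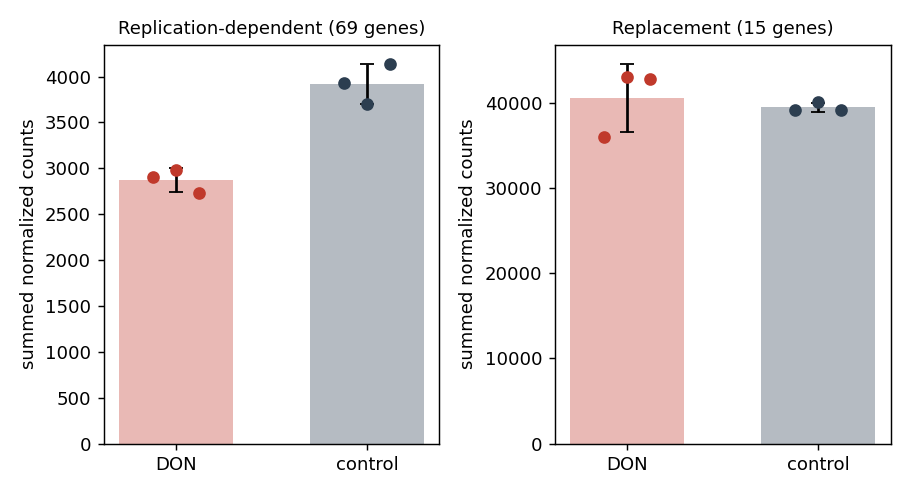
Summed normalized counts per library (vertical, from 0) of 69 replication-dependent genes and of 15 replacement genes, in DON and control libraries. Points are libraries, bars are means and error bars are SD (n = 3 each); the DON libraries lie between 2732 and 2979 for replication-dependent genes, below all control libraries, while the replacement sums overlap.

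A few genes carried most of the replication-dependent sum. Hist2h2be and Hist3h2a together made up 57.4, 58.1 and 61.6% of it in DON libraries and 48.9, 57.7 and 52.3% in control libraries. All 5 families had lower sums in DON libraries, with log2 ratios of -0.54 for H1, -0.31 for H2A, -0.42 for H2B, -1.37 for H3 and -0.50 for H4. For H3 the sums were 122, 118 and 155 in DON libraries, against 390.0, 379 and 255 in control libraries. For H4 they were 206, 233 and 178 in DON libraries, against 313, 285 and 272 in control libraries. In all 5 families every DON library was below every control library, and most of the H3 difference lay in Hist2h3c1, described further on. By cluster, the log2 ratio of sums was -0.52 for the 56 Hist1 genes, -0.55 for the 10 Hist2 genes and -0.25 for the 2 Hist3 genes. The 52 replication-dependent genes too low to be tested had sums of 90.9, 107 and 85.1 in DON libraries, against 147, 164 and 134 in control libraries, and these did not overlap either. No test was made of sums over members.

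Gene by gene, a test was possible for 28 members with at least 10 normalized counts in 3 or more libraries: 17 replication-dependent, 9 replacement and 2 noncoding. Changes are log2(normalized count + 1) in DON libraries minus control libraries, which understates the change of low genes, and were tested with limma with Benjamini-Hochberg adjustment over all 17185 genes that reached this minimum. A single histone gene, Hist2h3c1, passed an adjusted p of 0.05, and it was lower in DON libraries. Over all genes tested, 4.15% were called lower and 2.3% higher (6.45% in all), so 1 call among 17 lies near the share among all genes. These totals themselves moved with the libraries: 1108 genes were called in all, against 260 to 307 without a control library, 391 and 384 without DON library 2 or 3, and 3237 without DON library 1. At an unadjusted p under 0.05, 6 replication-dependent genes were lower and 0 were higher, against 14.1% and 11.4% of all genes.

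The sizes of the changes are described without a test over the class. In 11 of the 17 tested replication-dependent genes every DON library was below every control library, in 0 was every DON library above, and 6 overlapped. Over all genes tested, 15.7% had every DON library below and 15.7% every DON library above. Of these 17 genes, Hist1h1e and Hist1h2be reached the minimum only through control libraries, so for these 2 the direction follows from the minimum. Among the 10 replication-dependent genes with a mean above 50 over all libraries, a choice that does not favour either group, 8 had every DON library below and 2 overlapped. The median log2 change of these 10 was -0.48, against -0.50 over the 17 tested, -0.02 over the 9 tested replacement genes and 0.00 over all genes tested. The plot of log2 changes sets both classes side by side.

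**Figure D3:**
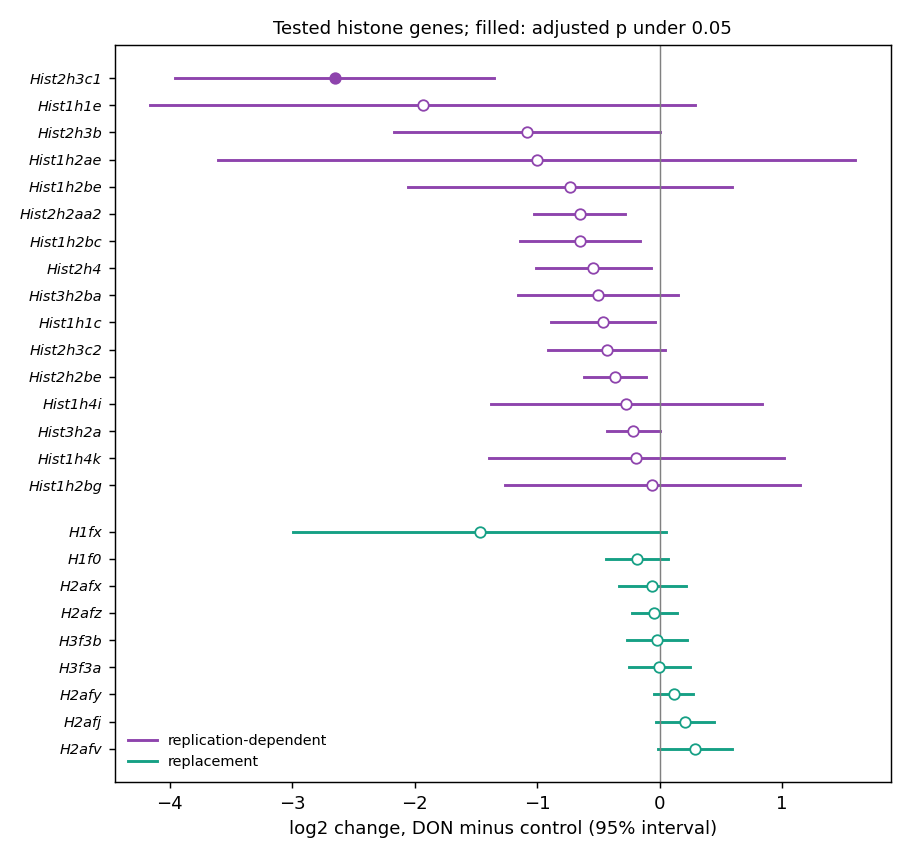
Log2 change, DON minus control, of tested replication-dependent (top) and replacement (bottom) histone genes, with 95% intervals from limma over 6 libraries. Filled points passed an adjusted p of 0.05 (Hist2h3c1 alone); Hist2h2aa1, whose interval runs from -4.17 to 8.53, is not drawn, and the drawn replication-dependent points all lie below 0.

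Hist3h2a (chr11:58954685-58956830, plus strand) and Hist2h2be (chr3:96221119-96223738, plus strand), which encode an H2A and an H2B protein, gave the highest counts of the class. Hist3h2a had 849, 937 and 867 normalized counts in DON libraries, against 997, 1094 and 987 in control libraries. Hist2h2be had 822, 795 and 816 in DON libraries, against 924, 1041 and 1177 in control libraries. In both genes every DON library was below every control library, and the differences were small. The log2 change was -0.21 for Hist3h2a (95% interval -0.43 to 0.00, limma adjusted p = 0.197) and -0.36 for Hist2h2be (-0.62 to -0.11, adjusted p = 0.089), so neither passed; Hist2h2be passed with DESeq2 (0.0414). Hist3h2a lies wholly inside the span of Trim17 on the same strand, and Trim17 averaged 90.6 normalized counts, so shared reads cannot be told apart there.

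Hist1h1c (chr13:23738808-23740367, plus strand) encodes a linker H1 histone. It had 186, 215 and 173 normalized counts in DON libraries, against 325, 223 and 251 in control libraries. The groups did not overlap, but the gap between DON library 2 and control library 2 was narrow. The log2 change was -0.46 (limma adjusted p = 0.167).

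Hist2h4 (chr3:96261682-96263311, minus strand), an H4 gene, had 149, 120 and 106 in DON libraries, against 198, 198 and 152 in control libraries. Its highest DON library, 149, stood just under its lowest control library, 152. The log2 change was -0.54 (adjusted p = 0.145). Hist1h2bc, an H2B gene of the Hist1 cluster without the stem-loop letters, had 82.2, 69.6 and 89.2 in DON libraries, against 132, 106 and 142 in control libraries. These did not overlap, and the log2 change of -0.65 had an adjusted p of 0.108.

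Hist3h2ba, an H2B gene next to Hist3h2a, had 90.9, 102 and 114 in DON libraries, against 181, 94.4 and 178 in control libraries. The groups overlapped because control library 2 lay among the DON libraries. The log2 change was -0.50 (adjusted p = 0.304). The low Hist1 genes Hist1h2be, Hist1h2bg, Hist1h4i and Hist1h4k had log2 changes between -0.73 and -0.06, none of which passed. Hist1h2ae had 0, 9.81 and 14.2 in DON libraries, against 15.6, 5.49 and 11.3 in control libraries, and overlapped (adjusted p = 0.618). Hist1h1e, a linker H1 gene, had 8.61, 6.24 and 0 in DON libraries, against 15.6, 14.3 and 14.4 in control libraries, with a log2 change of -1.94 (95% interval -4.16 to 0.29, adjusted p = 0.251), and overlaps Hist1h2be on the same strand.

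**Figure D4:**
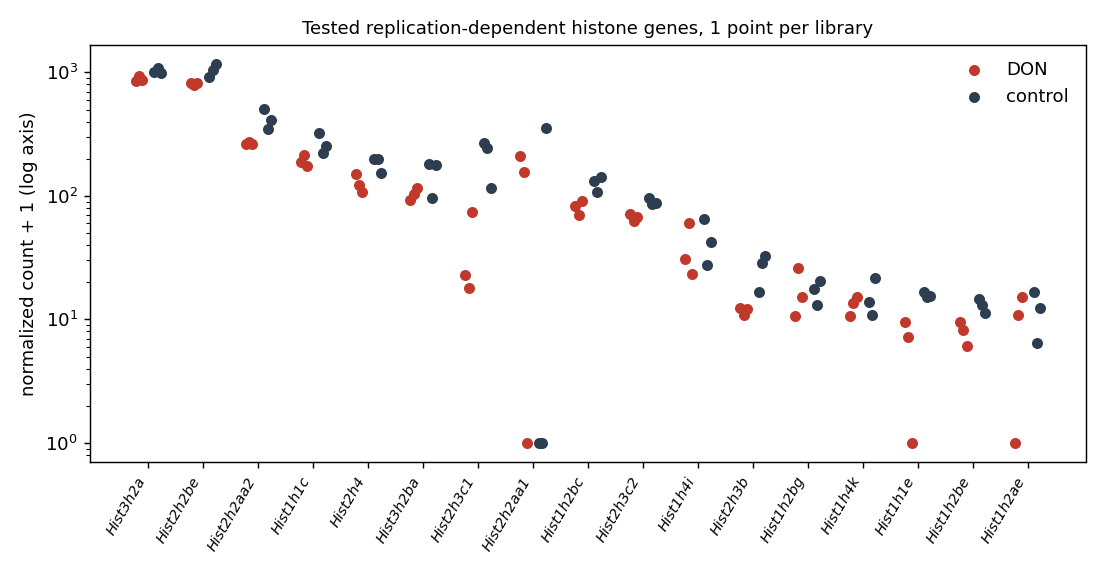
Normalized count + 1 (vertical, log axis) of the 17 tested replication-dependent histone genes, 1 point per library, DON left of control. In Hist2h2aa1, 1 DON and 2 control libraries are at 0, and in Hist2h3c1 all DON libraries are at or below 72.9 while control libraries start at 116.

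The Hist2 cluster on chromosome 3 holds H2A and H3 genes that share long stretches of sequence. Hist2h3c1 (chr3:96246685-96248509, plus strand) and Hist2h3c2 encode replication-dependent H3, as does Hist2h3b, and Hist2h2aa1 and Hist2h2aa2 encode H2A. Every 100-base stretch of the annotated transcripts of Hist2h3c1, Hist2h3b, Hist2h2aa1 and Hist2h2aa2 occurs in a transcript of another annotated gene, as do 61.6% of those of Hist2h3c2. This count includes genes annotated over the same bases, on either strand. Gm20634 spans all of Hist2h3c1, Gm20628 all of Hist2h3b, Gm20633 all of Hist2h2aa1 and Gm20632 all of Hist2h2aa2. For these 4 members the count therefore does not show how much the copies share with each other. The 528-base Hist2h2aa2 transcript is found whole, with 0 differences, within that of Hist2h2aa1, whereas the 1020-base Hist2h3c2 transcript aligned to that of Hist2h3c1 with 179 differences. How reads were divided among such copies is not stated by the labels, so values of single copies are uncertain.

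Hist2h3c1 had 22.0, 16.9 and 72.9 normalized counts in DON libraries, against 266, 243 and 116 in control libraries. The groups did not overlap, with DON library 3 the highest of its group and control library 3 the lowest of its own. It fell by 2.65 on the log2 scale (SE 0.56, 95% interval -3.96 to -1.35, limma adjusted p = 0.0359). The call did not hold without control library 1, 2 or 3 (adjusted p = 0.121, 0.134 and 0.0673) or without DON library 2 (0.107). It also did not hold without a minimum level (0.0655), with a minimum of 1 (0.0637) or without the variance trend (0.11).

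Hist2h2aa1 switched between 0 and high values inside both groups. It had 211, 154 and 0 in DON libraries, against 0, 0 and 354 in control libraries. Gm20634, an annotated gene on the same strand that covers all of Hist2h3c1 and most of Hist2h2aa1, was at 0 in the same 3 libraries: it had 121, 139 and 0 in DON libraries, against 0, 0 and 166 in control libraries. The log2 change of Hist2h2aa1, 2.18, had a 95% interval of -4.17 to 8.53 and an adjusted p of 0.661, so these values give no direction.

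Hist2h2aa2 (chr3:96239749-96240276, minus strand) had 260.1, 272 and 260.4 in DON libraries, against 505, 346 and 412 in control libraries. All DON libraries were lower, and the 3 lay close together. The log2 change was -0.65 (SE 0.16, limma adjusted p = 0.0527), just outside the threshold. It passed with the GC correction (0.0339), with edgeR on recovered units divided by 4 (0.049), with DESeq2 (0.00618), with a mean of at least 5 CPM (0.0488) and without DON library 1 (0.0479).

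Hist2h3c2 had 69.8, 61.5 and 66.9 in DON libraries, against 95.8, 85.6 and 87.2 in control libraries. Hist2h3b had 11.5, 9.81 and 11.1 in DON libraries, against 15.6, 27.4 and 31.8 in control libraries. Neither overlapped, and neither passed, with log2 changes of -0.43 (adjusted p = 0.232) for Hist2h3c2 and -1.08 (0.197) for Hist2h3b.

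Because copies share sequence in part or whole, their values were also summed and fitted as single features, a choice made after the data were seen. Hist2h3b, Hist2h3c1 and Hist2h3c2 together had 103, 88.3 and 151 in DON libraries, against 377, 356 and 235 in control libraries. The sum did not overlap between groups and fell by 1.50 on the log2 scale (limma adjusted p = 0.0201). Its call was lost when control library 1 or 2, DON library 2, or DON libraries 2 and 3 together were left out, and without the variance trend. Hist2h2aa1 and Hist2h2aa2 together had 471, 426 and 260.4 in DON libraries, against 505, 346 and 766 in control libraries. These overlapped (log2 change -0.45, adjusted p = 0.413). The 5 genes with the 4 annotated genes that overlap them (Gm20628, Gm20632, Gm20633 and Gm20634) had 1265, 1198 and 1061 in DON libraries, against 2000.1, 1698 and 2091 in control libraries. This sum fell by 0.71 (adjusted p = 0.013), with no overlap, and its call did not hold without control library 1 (0.0641), without control library 3 (0.0644), without DON libraries 2 and 3 together (0.103) or without the variance trend (0.0589). Without the 5 copies, the remaining 64 replication-dependent genes summed to 2335, 2464 and 2321 in DON libraries, against 3042, 3000.1 and 3138 in control libraries, a log2 ratio of -0.37.

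**Figure D5:**
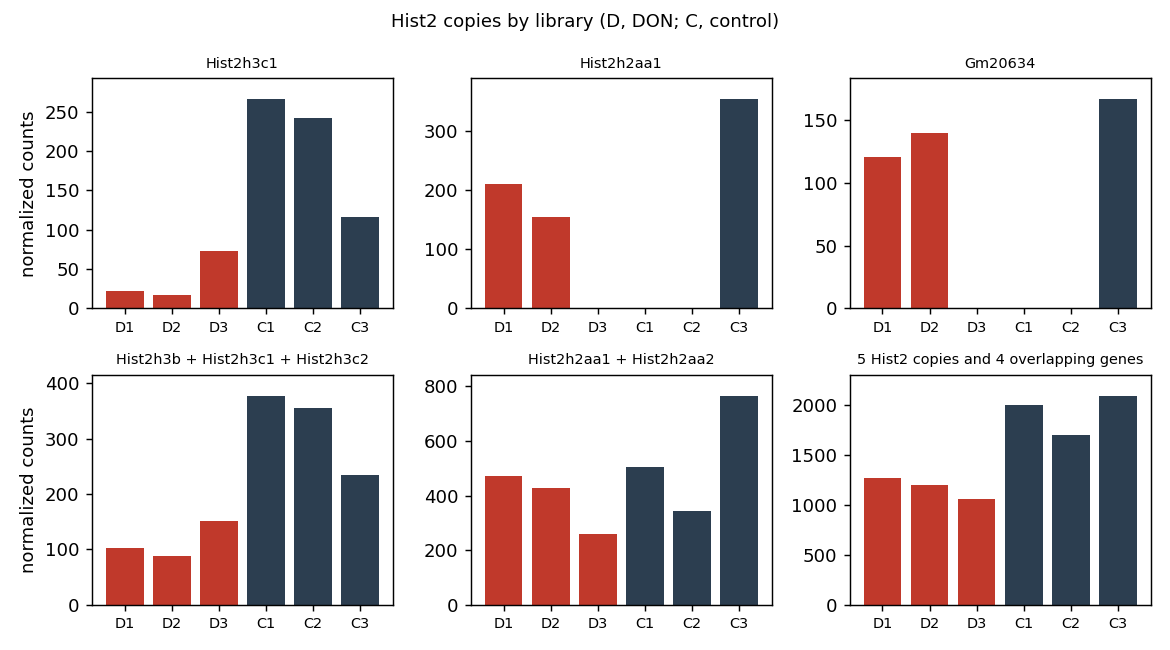
Normalized counts (vertical, from 0) of Hist2 copies in DON libraries (D1 to D3) and control libraries (C1 to C3), 1 bar per library with no error. Hist2h2aa1 and Gm20634 are at 0 in D3, C1 and C2, whereas the sum of 5 copies and 4 overlapping genes is between 1061 and 1265 in DON libraries and at or above 1698 in control libraries.

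No tested replacement gene passed the test. Of the 9, 7 overlapped between the groups and 2 had every DON library below every control library. Among all genes tested, 15.7% had every DON library below and 15.7% every DON library above. Counts over 9 genes are too few to set the class apart from these shares. In limma 0 of 9 had an unadjusted p under 0.05, and in edgeR and DESeq2 0 passed an adjusted p of 0.05. The H3f3a and H3f3b genes encode the same replacement H3 protein, which enters chromatin at transcribed genes and elsewhere outside replication. H3f3b (chr11:116021912-116027962, minus strand) had 9781, 12795 and 12830 in DON libraries, against 11884, 11761 and 12096 in control libraries. H3f3a (chr1:180800832-180813943, minus strand) had 8211, 9670 and 9681 in DON libraries, against 8998, 10535 and 8137 in control libraries. DON library 1 was the lowest DON library in both genes, and the groups overlapped. The log2 changes were -0.02 for H3f3b (95% interval -0.27 to 0.22, adjusted p = 0.909) and -0.00 for H3f3a (-0.25 to 0.25, adjusted p = 0.994).

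Among the H2A replacements, H2afz encodes an H2A found at promoters, and H2afv encodes a closely related protein. H2afz had 2468, 2743 and 2794 in DON libraries, against 2681, 2669 and 2898 in control libraries, and overlapped (log2 change -0.04, 95% interval -0.23 to 0.14, adjusted p = 0.767). H2afv had 1775, 1965 and 1787 in DON libraries, against 1849, 1348 and 1374 in control libraries, with control library 1 among the DON values (0.29, adjusted p = 0.216).

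H2afj encodes an H2A known to build up in senescent human fibroblasts. It had 2546, 3280 and 3082 in DON libraries, against 2522, 2516 and 2625 in control libraries. DON library 1 was below the highest control library, and the log2 change was 0.21 (adjusted p = 0.243), which without DON library 1 was 0.32 (adjusted p = 0.0172).

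H2afy encodes macroH2A, an H2A with a large extra domain that is enriched on the inactive X chromosome. It had 9404, 10327 and 10430 in DON libraries, against 9000.5, 9002 and 9863 in control libraries, and overlapped (0.11, adjusted p = 0.338). H2afx encodes the H2A that is phosphorylated at DNA breaks, and is the replacement gene whose transcript holds the stem-loop. It had 1214, 1614 and 1481 in DON libraries, against 1494, 1563 and 1409 in control libraries. These overlapped, and the log2 change was -0.06 (95% interval -0.33 to 0.21, adjusted p = 0.787).

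The replacement linker genes were the 2 with no overlap. H1f0, whose protein builds up in cells that stop dividing, had 549.9, 641 and 617 in DON libraries, against 735, 644 and 671 in control libraries. The highest DON library nearly met the lowest control library, and the log2 change was -0.18 (adjusted p = 0.339). H1fx had 4.78, 9.81 and 4.05 in DON libraries, against 16.6, 32.9 and 10.3 in control libraries, and reached the minimum level only through control libraries (-1.47, adjusted p = 0.21). H1fx overlaps the opposite-strand gene Gm5577, which averaged 490.2 normalized counts, and the labels do not say whether counting used strand. For the same reason H3f3a cannot be separated from the opposite-strand Gm17275, which averaged 3129.6, or from H3f3aos, which had 312, 254 and 296 in DON libraries and 285, 213 and 217 in control libraries (log2 change 0.27, adjusted p = 0.345). H2afy, H2afj and H2afx likewise overlap opposite-strand genes, which averaged 1301, 545 and 209 normalized counts in that order.

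Genes were taken from 4 lists: histone mRNA processing, histone chaperones and exchange factors, S phase and mitosis. Of the 102 listed genes 101 were tested: 19 fell, 0 rose and 82 did not pass. Over all genes tested, 4.15% were called lower and 2.3% higher. Most of the genes that fell were in the S phase list (5) and the mitosis list (10). Of 25 tested genes of histone mRNA processing, 1 fell, near the share of all genes, 0 rose and the median log2 change was -0.06. The gene that fell was Casp8ap2, whose protein is needed for histone gene transcription, with 1679, 1687 and 1552 in DON libraries, against 2188, 3152 and 3084 in control libraries (-0.76, adjusted p = 0.0248). No gene of this list was called lower without control library 2 or 3, without DON library 2 or 3 (alone or together), without the variance trend or with the GC correction, and 3 were without DON library 1. Slbp, which encodes the protein that binds the stem-loop, averaged 1399 ± 60.7 in DON libraries and 1459 ± 151 in control libraries (SD, n = 3 each; -0.06, limma adjusted p = 0.759). Npat, which encodes the coactivator of replication-dependent histone genes, overlapped as well (-0.18, adjusted p = 0.387). Zcchc11, an enzyme that adds uridines to RNA, had a log2 change of -1.01 (0.0835), and Cpsf1, a subunit of the 3′ end cleavage complex, 0.18 (0.129).

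Of 34 chaperones and exchange factors, 3 fell, 0 rose and the median log2 change was -0.11, against 4.15% called lower and 2.3% higher among all genes tested. Those 3 were Chaf1a, a subunit of the complex that places new H3 and H4 behind replication forks (-1.21, limma adjusted p = 0.009), Dek, a chromatin protein that binds histones (-0.86, 0.004), and Nap1l1, an H2A and H2B chaperone (-0.85, 0.0271). Chaf1a had 106, 134 and 119 in DON libraries, against 248, 272 and 316 in control libraries, with no overlap. The count of 3 was 1 without control library 3, 10 without DON library 1 and 6 with DESeq2.

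Of 28 genes of the S phase, when DNA is copied, 5 fell, 0 rose and the median was -0.28. Rrm2, a subunit of the enzyme that makes deoxyribonucleotides, had 222, 221 and 222 in DON libraries, against 579.7, 596 and 547 in control libraries (-1.37, limma adjusted p = 0.001). Uhrf1, which binds newly copied DNA, changed by -1.51 (0.0013), and the cyclin gene Ccna2 by -1.88 (0.0075). Cdc6, which loads the replicative helicase, changed by -1.68 (0.0121), and the cyclin gene Ccne2 by -2.46 (0.018). The count of 5 was 3 without control library 1 or 2 and 10 without DON library 1 or with DESeq2. Of 14 mitosis genes, 10 fell, 0 rose and the median was -1.31, and 5 or 6 were called without a control library. With a mean of at least 5 CPM 6 were called. That minimum leaves called genes with low counts untested, such as Cdk1 (mean 96.4 over all libraries) and Bub1 (80.8). Mki67, a marker of cycling cells, averaged 957 ± 252 in DON libraries and 2850.2 ± 173 in control libraries (SD, n = 3 each; -1.60, limma adjusted p = 0.0028). The DNA topoisomerase gene Top2a changed by -1.41 (0.0013), and Ube2c, which helps destroy mitotic cyclins, by -1.60 (0.0027).

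Markers of cell types were counted too, in lists chosen with earlier results of these data known. The shares over all genes tested were 4.15% called lower and 2.3% called higher. Of 13 B cell markers 11 fell and 0 rose, and their summed level was 49446 to 56169 in DON libraries and 71898 to 75094 in control libraries. Of 9 neutrophil markers 6 fell and 0 rose (sums 2632 to 3036 in DON libraries and 9905 to 10152 in control libraries), and of 7 mast cell and basophil markers 4 fell and 0 rose (3028 to 3110.3 in DON libraries and 3208 to 3497 in control libraries). Of 12 macrophage and monocyte markers 6 rose and 1 fell (20533 to 22676 in DON libraries and 20669 to 21195 in control libraries). Of 8 erythroid markers 1 rose and 0 fell (28730.0 to 33690.0 in DON libraries and 24876 to 25734 in control libraries), and of 7 tested dendritic cell markers 1 fell and 0 rose (1950.0 to 2082 in DON libraries and 2026 to 2352 in control libraries). Of 10 γδ T cell markers 2 fell and 1 rose (58826 to 66798 in DON libraries and 61246 to 62002 in control libraries), and no gene of these lists was at 0 in all libraries. Sums of the macrophage and monocyte, dendritic cell and γδ T cell markers overlapped between the groups. The part of these cell types in the lower replication-dependent sum was not tested. Transcript GC content went with the deviation from the control mean in DON libraries 2 and 3 (Spearman 0.32 in each, a description over 17152 genes that share a library) and less in the other 4 (-0.13 to 0.14). All 69 replication-dependent genes had a median transcript GC content of 58.3%. It was 53.0% for the 10 with a mean above 50 normalized counts and 54.3% for the 15 replacement genes. After removing the GC trend, the median log2 change of tested replication-dependent genes minus that of tested replacement genes was -0.62, against -0.48 without it.

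The promoter windows of the members (250 bases before to 50 after the start, RefSeq, GRCm38.p6) were searched for 3 motifs on both strands. These were CCAAT (the CCAAT box), then TATAAA (the TATA box) and lastly ATTTGCAT (the octamer bound by Oct factors). Of 87 members 86 matched a RefSeq gene and 77 had a window. CCAAT was in 54 of 63 windows of replication-dependent genes and 10 of 14 of replacement genes, against 37.4% of 32851 windows of all genes. By family it was in every replication-dependent H1, H2A, H2B and H3 window, but in only 3 of 12 H4 windows (25%). TATAAA was in 35 of 63 and 1 of 14, against 13.6% of all. ATTTGCAT was in 14 of 63 and 1 of 14, against 1.74% of all, and the 14 were 7 H2A and 7 H2B genes. Windows of neighbouring H2A and H2B genes can overlap, as in Hist1h2aa and Hist1h2ba, so 1 site can count for both genes. A match describes these letters and is not a site shown to be bound.

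Windows of 3 genes are printed with motif letters of either strand in capitals: Hist3h2a and Hist2h3c1, the replication-dependent genes with the highest count and with the call, and H3f3b, the replacement gene with the highest level. They lie at chr11:58954435-58954734 (plus), chr3:96246435-96246734 (plus) and chr11:116024455-116024754 (minus).
Hist3h2a: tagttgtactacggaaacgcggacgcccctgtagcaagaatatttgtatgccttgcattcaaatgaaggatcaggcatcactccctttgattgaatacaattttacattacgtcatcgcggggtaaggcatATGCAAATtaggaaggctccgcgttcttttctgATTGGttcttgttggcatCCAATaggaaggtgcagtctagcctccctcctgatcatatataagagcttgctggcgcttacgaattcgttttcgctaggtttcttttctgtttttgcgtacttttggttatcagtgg
Hist2h3c1: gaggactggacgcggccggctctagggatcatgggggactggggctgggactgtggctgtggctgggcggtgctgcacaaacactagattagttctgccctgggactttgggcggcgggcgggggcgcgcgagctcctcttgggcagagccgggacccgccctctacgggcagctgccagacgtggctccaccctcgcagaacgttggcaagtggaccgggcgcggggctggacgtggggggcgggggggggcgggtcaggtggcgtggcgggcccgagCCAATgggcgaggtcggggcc
H3f3b: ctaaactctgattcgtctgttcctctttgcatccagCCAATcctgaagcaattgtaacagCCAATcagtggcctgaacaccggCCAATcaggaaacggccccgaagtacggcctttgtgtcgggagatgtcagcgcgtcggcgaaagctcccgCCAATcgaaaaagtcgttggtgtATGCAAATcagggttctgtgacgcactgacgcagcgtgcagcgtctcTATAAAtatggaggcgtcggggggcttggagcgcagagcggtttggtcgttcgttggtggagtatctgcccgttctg

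H3f3b is the replacement gene whose window holds all 3 motifs. The window of Hist3h2a holds CCAAT on both strands and the octamer, and that of Hist2h3c1 holds CCAAT alone. The windows of Hist2h3c1 and Hist2h3c2 differ at 1 of 285 aligned bases, and those of Hist2h2aa1 and Hist2h2aa2 at 11 of 260.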

How the data were processed

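Libraries were made from Trizol-extracted RNA with a VAHTS mRNA kit, per the labels' protocols. HISAT2 and StringTie and, as builds, mm8 and mm10 are named without role or version, per the submitters' processing notes. The deposited values are normalized counts, per the file headers: a signal for each gene, in which the authors divided gene counts by a factor of each library. Values above 0 came out as whole multiples of a step for each library (100% of them, within a tolerance of 0.001), giving totals of 33715873 to 40840099 recovered units. A unit need not be 1 read, since more genes held 4 units than 3 or 5.

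Coordinates are those of the files; 49909 of 52550 genes had the same ones in GENCODE M21 (GRCm38). The members and gene lists were chosen with earlier results of these data known. Limma 3.58.1 in R 4.3.3 (lmFit, eBayes with a variance trend, two-sided, pseudocount 1) was fitted to all 17185 symbols with at least 10 normalized counts in 3 of 6 libraries, calling genes at a Benjamini-Hochberg adjusted p under 0.05, without a replicate term. Named were called histone genes, the 8 replication-dependent genes of highest mean, tested replacement genes, the 3 members of each list with the smallest adjusted p, and Slbp, Npat and Mki67; other genes named were chosen after their values were seen. Alternatives were another pseudocount, filters, scalings, no variance trend, a replicate block, a GC correction (loess, span 0.5), edgeR 4.0.16, DESeq2 1.42.0 and libraries left out.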

Additional observations from a re-analysis of the deposited data

How the results depend on the processing

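The number of replication-dependent genes called lower was 1, and was 0 without a minimum level, with a minimum of 1, without the variance trend, with the replicate block (alone or with the GC correction) and without the 5 Hist2 copies. It was 2 with the GC correction and with edgeR on recovered units divided by 4, and 3 with DESeq2. Leaving out single libraries gave 0 to 2, and 0 to 1 replacement genes called higher. Without control library 1, 2 or 3, or without DON library 2, the count was 0. Hist2h3c1 could not be tested with a mean of at least 5 CPM. The 19 genes called lower in the 4 lists of processing, chaperone, S phase and mitosis genes became 29 with DESeq2. They became 10 to 35 when single libraries were left out. Those called higher became 1 with the GC correction and 0 to 3 when single libraries were left out. The log2 ratio of the replication-dependent sum, -0.45, was -0.33 with H2afx counted in the class, -0.37 without the 5 Hist2 copies and -0.49 to -0.41 when single libraries were left out. The median change of replication-dependent minus replacement genes, -0.48, lay between -0.62 and -0.32 in 23 alternatives. Same-numbered libraries did not deviate together (correlations -0.06, -0.05 and -0.05). These values were centred within groups of 3 libraries and cannot exclude pairing, and the labels do not say whether the numbers mark it. With the replicate block 288 of all genes were called, against 1108 without it. Hist2h3c1 then had a limma adjusted p of 0.0985 (0.0812 with the GC correction added). The 3 summed H3 copies had 0.0752 and the 5 copies with 4 overlapping genes 0.055, so the block ended these calls. DESeq2 called 2134 genes. Low counts limit the 44 replication-dependent genes under 10 in every library, and shared sequence limits the Hist2 copies.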
